A study of Mus musculus with 8 samples.

Results

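The genes described here are the very long expressed genes of Hepa-1 cells, a mouse hepatoma line. They are the protein-coding genes whose RefSeq span on the mm10 genome, from the first to the last annotated base with introns included, was at least 300 kb, and whose mean level in the control libraries was at least 1 CPM, a unit that scales the count of a gene to the total count of its library. Symbols starting with Col or Zfp were left out. Members made up 196 of the 23403 genes counted. The table held 546 protein-coding genes of at least 300 kb, of which 10 were left out for their symbol, 9 of these also below the level floor, and 340 others lay below the floor.

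RNA-seq covered 4 libraries of the same cell line, Hepa-1c1c7: 2 of cells that received 25 µM Cr(VI), hexavalent chromium given as a chromate salt in the growth medium, for 90 minutes, and 2 of control cells without chromium, and nothing in their labels ties them to either regimen. FAIRE-seq, which recovers DNA that is not crosslinked to protein, covered the same acute treatment, a long-term treatment of 20 passages with Cr(VI) at 0.5 µM, and a control of each, with 1 library per condition. RNA-seq of the long-term treatment was not analysed here. No source says that the RNA-seq replicates came from separate cultures, so p-values measure only the spread between these libraries, which may be technical.

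A transcript that starts and ends at the outer limits of a gene is as long as the gene's span, and RNA polymerase II has to cross all of it before a full messenger RNA can be spliced and polyadenylated. In very long genes nearly all of this distance is intron, so that a polymerase can be under way for hours, and their output is known to depend on elongation factors and on topoisomerases that relieve the supercoils ahead of the polymerase. Many such genes encode adhesion receptors, junction scaffolds, cytoskeletal proteins and signalling regulators, and several lie at common fragile sites, chromosome regions that break when replication is slowed.

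The median span of the 196 members was 411.6 kb, with a range from 301.6 to 2390 kb. Their exons made up a median of 10.77 kb, or 2.38% of the span. The other 10805 expressed protein-coding genes had a median of 3.52 kb of exons, or 15.7% of the span. The longest intron of a member measured 151 kb in the median, and 158 members had an intron of more than 100 kb. The 5 longest were Dmd, Magi2, Pde4d, Nrg1 and Lrmda. Just inside the span limit lay Cacna1a (301.621 kb), Pid1 (303.550 kb) and Cmss1 (304.869 kb), and just outside it Akap13 (299.084 kb), AW554918 (298.592 kb) and Kcnmb2 (298.320 kb). Just inside the level floor lay Nkain3 (mean control level 1.058 CPM), Pkhd1 (1.081 CPM) and Snx29 (1.143 CPM), and just outside it Mdga2 (0.9642 CPM), Alk (0.8899 CPM) and Ncald (0.8696 CPM).

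Total counts were 32319676 to 37696116 per RNA-seq library. The log2 CPM of the control pair correlated at 0.9973 (Pearson, across genes) and that of the treated pair at 0.9735, and the TMM factor of treated replicate 2 was 0.897 against 1.03 to 1.04 in the other libraries. Of 13 hepatocyte markers 5 were called higher and 0 lower in treated cells, with summed levels of 3777 and 3846 normalized CPM against 1061 and 1105 in controls, most of it albumin, while Apoa1 had no count in either control. Of 7 fibroblast markers 1 was called higher (summed levels 1287 and 1414 against 701.5 and 712.8), and of 3 endothelial markers 1 (1.92 and 2.35 against 0.633 and 0.690), each list with 1 marker at 0 in all libraries. No keratinocyte (8.89 and 12.7 against 11 and 11.3), blood (5.11 and 22 against 7.85 and 8.31) or neuron marker (0.739 and 1.14 against 0.614 and 0.748) was called, and the blood and neuron lists each held 1 marker at 0 in all libraries. The part of these shifts in the results below was not tested. In bulk RNA, fewer cells that express a gene and less RNA per cell cannot be told apart.

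Most of the very long genes had lower levels after 25 µM Cr(VI). Together the 196 genes held 5044 normalized CPM (CPM scaled with the TMM factors) in treated replicate 1, 4341 in treated replicate 2, and 6467 and 6348 in the controls. In both treated libraries the sum was below both controls. As a share of all counts they took 0.519% and 0.389% in treated cells against 0.675% and 0.659% in controls. Per gene, both treated libraries lay below both controls in 134 of 196 members (68.4%, against 34.1% of the 13619 genes tested), above both in 17 (8.67%, against 32.2%), and overlapped the controls in 45. By edgeR's quasi-likelihood test with Benjamini-Hochberg adjustment over all genes tested, 39 members were called lower (19.9%, against 2.85% of all genes) and 3 higher (1.53%, against 1.78%) at an adjusted p under 0.05. DESeq2 called 78 members lower (39.8%, against 7.32% of its genes) and 4 higher (against 6.9%), and all 39 of the former set were among the 78. The members were selected on their level in the same control libraries, so that these counts describe them and support nothing further. With the floor set on the mean of all 4 libraries instead, 36 members were called lower and 4 higher.

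The fitted log2 fold change (treated minus control) of the members had a median of -0.71, quartiles of -1.22 and -0.20, and a range from -3.61 to 1.45, beside a median of -0.0047 over all genes tested. It was negative in 163 members (83.2%, against 50.4% of all genes) and positive in 33.

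Each treated library showed the shift on its own. In replicate 1, 148 members (75.5%, against 46.3% of all genes) were below both controls, and the median difference of log2 levels from the mean of the controls was -0.65. In replicate 2, 161 members (82.1%, against 49.9% of all genes) were below both controls, and the median difference was -0.79. A difference below -1, or less than 50% of the control level, was found for 66 members (33.7%) in replicate 1 and 78 (39.8%) in replicate 2. The share of all genes past this limit was not counted. Both libraries share their controls, and no test was run within 1 library.

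The treated libraries were less alike than the controls, in the members as across all genes tested (correlations of 0.9735 and 0.9973). For the 1.5-fold differences, shared signs and splits below, no share of all genes was counted. Whether they are particular to the members is not known. The levels of a member in the controls differed by a median of 0.068 on the log2 scale, and those in the treated libraries by 0.47. More than 1.5-fold apart were the controls for 2 members and the treated libraries for 78. In 111 members replicate 2 was the lower treated library (as in 50.7% of all genes tested), and in 85 replicate 1. The differences were negative in both libraries for 139 members and positive in both for 19. In 21 members replicate 1 lay above both controls and replicate 2 below both, and the reverse held for 8. The widest such split, picked out after its values were seen, was in Dlc1, a GTPase-activating protein. Its levels were 53.9 and 16.9 normalized CPM in treated replicates 1 and 2 and 24.0 and 25.3 in the controls, so that its log2 fold change of 0.53 ± 0.56 (SE) averages a rise and a fall (adjusted p = 0.557, edgeR).

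**Figure D1:**
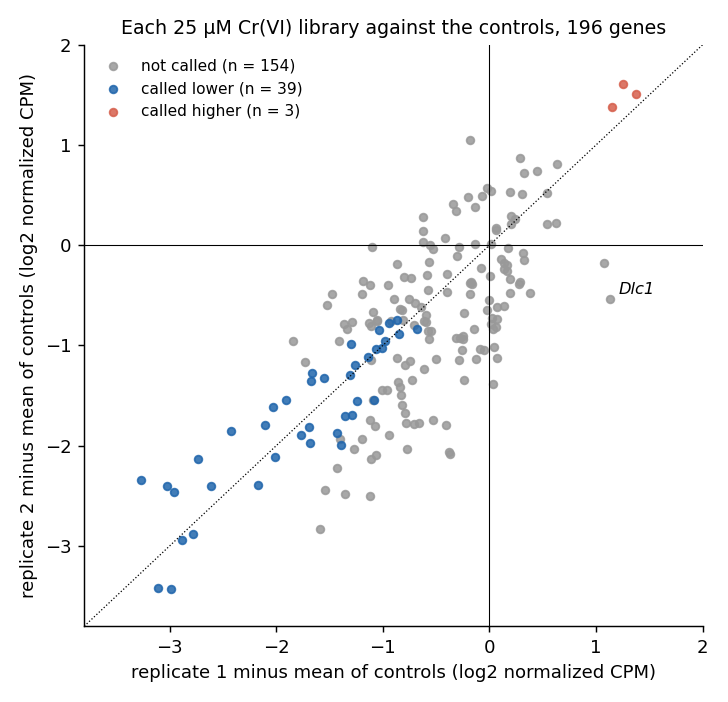
Difference of log2 normalized CPM from the mean of the controls in treated replicate 1 (x axis) and treated replicate 2 (y axis) for the 196 very long genes, 1 point per gene; blue points were called lower, red points higher. Most points lie at the lower left, where 139 genes are negative in both libraries, and Dlc1 is marked far from the dotted line of equal differences.

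The 12 largest falls among called members were those of Itgbl1, Inpp4b, Tmtc2, Dmd, Cadm1, Celf2, Tiam1, Tenm4, 3830403N18Rik, Agmo, Pde4d and Cacna2d1. Dmd, which encodes dystrophin, the protein that ties cortical actin to the membrane, is the longest member (chrX:82814664-85205050). It had 0.798 and 0.759 normalized CPM in treated and 6.82 and 6.21 in control libraries. This was a log2 fold change of -3.06 ± 0.23 (SE, n = 2 per group, edgeR adjusted p = 0.0282). The groups were far apart, and the treated libraries were nearly equal.

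Inpp4b, a phosphoinositide phosphatase (chr8:81342266-82134312), stood at 0.620 and 0.483 normalized CPM in treated cells and 6.33 and 5.93 in controls. Its log2 fold change was -3.46 ± 0.26 (SE, edgeR adjusted p = 0.0282). Tmtc2, an endoplasmic reticulum protein that takes part in O-mannosylation of cadherins, stood at 1.45 and 1.04 against 11.2 and 13.2 (log2 fold change -3.28). In both genes the treated libraries stood far below the controls and close to each other. The largest fitted fall, -3.61 on the log2 scale, was that of Itgbl1, a secreted protein with repeats like those of integrin beta chains. It rests on 4 and 3 counts in treated and 51 and 52 in control libraries, a ratio of 0.0799 with an exact 95% interval of 0.0314 to 0.171 that covers counting error only. Itgbl1 also shares 60.2% of its exon bases with exons of Fgf14, and how the authors' counting assigned such reads is not stated. Reads on shared exons were not simply dropped in another pair of members, Iqschfp and Schip1. Iqschfp shares 100% of its exon bases, most with Schip1, and had 607 and 454 counts in treated and 692 and 809 in control libraries. Schip1 had 614 and 457 against 704 and 817, so that these 2 members are not independent.

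Celf2, an RNA-binding regulator of splicing, was also low, with 6 and 4 counts in treated and 49 and 35 in control libraries (ratio 0.140, exact interval 0.0648 to 0.270). Cadm1, an immunoglobulin-type adhesion receptor, had 5 and 8 counts against 55 and 59 (ratio 0.134, exact interval 0.0693 to 0.239). The groups did not overlap in either gene, and in Celf2 the controls differed from each other more than in most members.

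Of the 7 adhesion receptors among the members 3 were called lower and 0 higher, and in all 7 both treated libraries were below both controls (median log2 fold change -1.46). Over all 196 members 68.4% were below both controls and 19.9% called lower, beside 34.1% and 2.85% of all genes tested. These shares stand beside each list below, and no list was tested against the others. Tenm4, a teneurin, a large transmembrane protein that pairs with receptors on other cells, had 1.27 and 2.52 normalized CPM against 12.9 and 13.4 (log2 fold change -2.80). Ptprg, a receptor-type tyrosine phosphatase, had 22.8 and 29.95 against 73.0 and 71.8 (-1.46). The best covered receptor of the list, Ptprk, a phosphatase of the same class that binds its like on neighbouring cells, had 56.3 and 60.9 against 74.6 and 74.2. Its log2 fold change of -0.34 did not pass the test (adjusted p = 0.126).

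Of 12 scaffolds of junctions and membranes 9 had both treated libraries below both controls and 2 above both. Called lower were 3, and 0 higher (median log2 fold change -0.65). Pard3, a polarity protein of epithelial junctions, had 31.6 and 23.9 normalized CPM against 75.9 and 79.1 in controls. Ank2, an ankyrin that anchors membrane proteins to spectrin, had 11.7 and 9.39 against 26.9 and 28.7. Magi1, a scaffold of tight junctions, had 14.3 and 14.4 against 34.9 and 36.1. These falls were 1.31 to 1.48 in size on the log2 scale, and in Magi1 the treated libraries were nearly equal. Ank3, another ankyrin, stood at 42.7 and 25.5 against 98.6 and 97.0 but missed the threshold (log2 fold change -1.52 ± 0.27 SE, adjusted p = 0.0584).

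Of 18 cytoskeletal and motor genes 13 had both treated libraries below both controls and 1 above both. Called lower were 5, and 0 higher (median log2 fold change -0.79). Besides Dmd these included formins, which nucleate straight actin filaments. Diaph3 had 22.6 and 18.4 normalized CPM against 73.4 and 71.9 (log2 fold change -1.83 ± 0.15 SE, adjusted p = 0.0282). Diaph2 had 15.4 and 11.3 against 41.3 and 42.1, and Fmn1 3.40 and 3.11 against 11.8 and 11.8. These 3 formins fell to under 50% of control in both treated libraries. Fhod3, a formin of sarcomeres in the same list that is named after its values were seen, overlapped the controls, with 18.3 and 22.1 against 23.2 and 21.6 (-0.15, adjusted p = 0.567). Dst, a giant linker of cytoskeletal filaments, behaved otherwise, with 242 and 194 against 246 and 235 (log2 fold change -0.14, adjusted p = 0.566).

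Among 16 regulators of small GTPases of the actin cytoskeleton, growth signalling and membrane traffic 5 were called lower and 0 higher (median log2 fold change -0.75), and 11 had both treated libraries below both controls. Tiam1, an exchange factor for Rac, had 0.680 and 1.00 normalized CPM against 5.72 and 6.16 (log2 fold change -2.82). It shares 20.3% of its exon bases with another gene model. Dock1, also an exchange factor for Rac, had 34.0 and 42.3 against 85.7 and 81.7 (-1.13), and Agap1, an Arf GTPase-activating protein, 40.5 and 43.8 against 74.1 and 73.5 (-0.81). Tbc1d5 (-1.13) and Sbf2 (-0.76) both act on Rab GTPases, and Sbf2 is named after its values were seen. Dock4, the best covered of the list, had 61.8 and 36.3 against 112 and 107 but did not pass the test (adjusted p = 0.0876).

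Of 17 kinases, phosphatases, phosphodiesterases and signalling receptors 12 had both treated libraries below both controls and 1 above both. Called lower were 5, and 1 higher (median log2 fold change -0.97). Members of a single enzyme family moved in opposite directions. Pde4d and Pde4b both encode phosphodiesterases that hydrolyse cyclic AMP. Pde4d (chr13:108654177-109955969), whose 1 curated transcript spans 1302 kb, had 0.620 and 0.966 normalized CPM in treated and 3.80 and 3.73 in control libraries (log2 fold change -2.25 ± 0.31 SE, adjusted p = 0.0410). Pde4b (chr4:102087332-102607275) had 71.5 and 78.4 against 28.3 and 26.6 (log2 fold change 1.45 ± 0.12 SE, adjusted p = 0.0282). Its shortest curated transcript spans 17.4 kb of the 519.9 kb of the gene, and the count table does not separate transcripts. Prkca, protein kinase C alpha, had 19.4 and 22.8 against 58.2 and 56.0 (-1.44).

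Of 30 transcription and chromatin factors 17 had both treated libraries below both controls and 2 above both. Called lower were 4, and 0 higher (median log2 fold change -0.61). Arid1b, a subunit of the BAF chromatin remodelling complex, had 72.0 and 47.3 normalized CPM against 192 and 185 (log2 fold change -1.66 ± 0.23 SE, adjusted p = 0.0419). Mecom, a zinc finger factor of blood stem cells, had 0.650 and 0.828 against 2.88 and 3.38. Thrb, a thyroid hormone receptor, had 0.650 and 0.587 against 2.16 and 2.48, and Sox5, an HMG-box factor, had 1.86 and 2.42 against 6.99 and 7.49. None of these groups overlapped. Rere, a nuclear receptor corepressor and the best covered of the list, had 253 and 175 against 226 and 218 (-0.05, adjusted p = 0.890), with the treated libraries on either side of the controls. Cdkal1, an enzyme that modifies transfer RNA and stood in this list, had 5.05 and 3.66 against 10.6 and 11.2 (-1.32, adjusted p = 0.0567). Of the 2 RNA-binding proteins 1 was called, Celf2, and Msi2, a regulator of translation, had 21.1 and 24.6 against 36.0 and 35.2 (-0.64, adjusted p = 0.0750).

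Of 10 channels and transporters 6 had both treated libraries below both controls and 3 above both. Called lower were 2, and 0 higher (median log2 fold change -0.73). Cacna2d1, an auxiliary subunit of voltage-gated calcium channels, had 0.709 and 0.656 normalized CPM against 3.57 and 2.76 (log2 fold change -2.20). The other, Lrba, is better known for vesicle trafficking, and had 12.8 and 13.4 against 31.4 and 30.2 (-1.24). The best covered of this list, Slc39a11, a zinc transporter, had 19.7 and 35.2 against 45.6 and 44.6 and did not pass the test (adjusted p = 0.193).

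Of 29 trafficking proteins, ubiquitin ligases and enzymes 5 were called lower and 0 higher (median log2 fold change -0.76), and 24 had both treated libraries below both controls. Agmo, which cleaves ether lipids, had 1.03 and 1.21 normalized CPM against 6.96 and 6.70 (log2 fold change -2.61). Gphn, gephyrin, a synaptic scaffold that also makes the molybdenum cofactor, had 1.86 and 2.52 against 7.65 and 8.18 (-1.86). Exoc4, a subunit of the exocyst, which tethers secretory vesicles, had 29.6 and 23.3 against 76.1 and 75.6 (-1.52). Fbxl17, an F-box protein of a ubiquitin ligase, had 23.6 and 23.0 against 43.9 and 41.3 (-0.87). In all 4 genes the groups did not overlap. Oxr1, an oxidation resistance protein, had the highest control level of all members in CPM, with 343 and 218 against 411 and 405, and did not pass the test (-0.54, adjusted p = 0.223).

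In the list of matrix proteins, proteoglycans and glycosylation enzymes 2 of 6 members were called lower and 1 higher. Of the 6, 4 had both treated libraries below both controls and 1 above both. Tmtc2 is given above. Thsd4, a protein of microfibrils, had 50.4 and 51.2 normalized CPM against 107 and 103 (log2 fold change -1.05 ± 0.10 SE, adjusted p = 0.0312). Gpc3, a cell surface heparan sulphate proteoglycan made by fetal liver and hepatoma, rose, with 265 and 339 against 111 and 111 (1.44 ± 0.16 SE, adjusted p = 0.0327). Its shortest curated transcript spans 341.55 kb, so that every curated form of Gpc3 is a very long one. The third rise was in Mid1, a ubiquitin ligase bound to microtubules, with 135 and 159 against 58.9 and 63.0 (1.27 ± 0.13 SE, adjusted p = 0.0317).

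Among 7 members that lie at common fragile sites 3 were called lower, Dmd, Pde4d and Exoc4, and 0 higher. Of the 7, 5 had both treated libraries below both controls and 1 above both. Magi2, a synaptic scaffold and the member of second greatest length, had 1.00 and 0.794 normalized CPM against 1.24 and 1.07 (log2 fold change -0.35, adjusted p = 0.455). Nrg1 and Lrmda are not in the list of fragile sites and are given here for their length. Nrg1, a growth factor of the EGF family whose longest curated transcript spans 194.95 kb, had 31.6 and 19.6 against 37.6 and 37.7. Lrmda, a melanocyte differentiation gene, had 1.36 and 2.79 against 3.91 and 3.99. Neither passed the test (adjusted p = 0.224 and 0.198), so that of the 5 longest members only Dmd and Pde4d were called.

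Of the 49 members in no list 4 were called lower and 1 higher, while 29 had both treated libraries below both controls and 7 above both. 3830403N18Rik, on the X chromosome, had 3.16 and 4.90 normalized CPM against 26.7 and 25.95 (log2 fold change -2.71). Snd1, a nuclease and transcriptional coactivator and a gene of high level, had 135 and 190 against 237 and 236 and did not pass the test (-0.54, adjusted p = 0.154). Further called members, named after their values were seen, were Fam172a, Kif26b, Itpr2, Plcb1, Sh3kbp1 and Vti1a, with log2 fold changes from -1.53 to -0.86. Not all of them are in no list, and Plcb1 belongs to that of kinases, phosphatases, phosphodiesterases and signalling receptors. Fam172a shares 29.8% of its exon bases with another gene model. Kif26b is a kinesin-like protein, Itpr2 a calcium release channel, Plcb1 a phospholipase, Sh3kbp1 an endocytic adaptor and Vti1a a SNARE of vesicle fusion. On the X chromosome, which held 11 members, 4 were called lower and 2 higher.

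**Figure D2:**
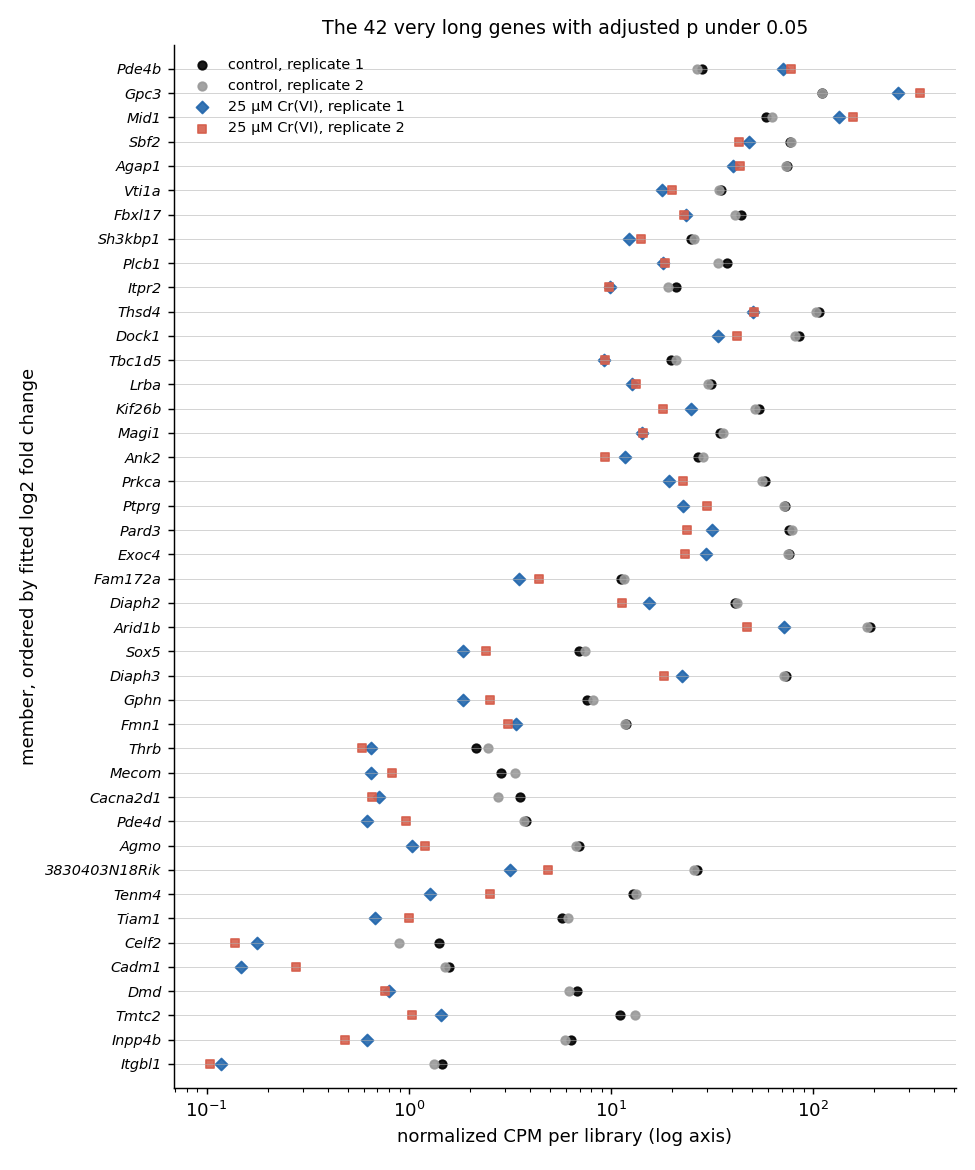
Normalized CPM (log axis) in each of the 4 RNA-seq libraries for the 42 very long genes with an adjusted p under 0.05 (edgeR), ordered by fitted log2 fold change; grey and black circles are controls, diamonds and squares treated libraries. In 39 genes the treated symbols stand to the left of the controls, and in Pde4b, Gpc3 and Mid1 to the right.

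Called members were found at all levels of expression. Of 59 members with at least 30 CPM in controls 17 were called lower and 2 higher, of 63 with 10 to 30 CPM 9 and 1, of 44 with 3 to 10 CPM 9 and 0, and of 30 with 1 to 3 CPM 4 and 0. The median log2 fold changes were -0.64, -0.66, -0.98 and -0.23. Per kb of exon the control levels of some high genes were 34.7 CPM per kb for Oxr1, 42.3 for Snd1, 49.0 for Gpc3, 5.76 for Dst and 6.26 for Rere.

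The comparison with shorter genes used protein-coding genes with the same floor. Levels were not matched, here or for the peak densities below. The median control level was 33.6 to 43.9 CPM in the classes under 300 kb, 14.6 CPM in the members and 6.58 CPM at 700 kb and over. The part of level in the differences between classes was not tested. The median log2 fold change was 0.05 in 2715 genes under 10 kb, 0.03 in 3737 genes of 10 to 30 kb, -0.09 in 3252 genes of 30 to 100 kb and -0.32 in 1101 genes of 100 to 300 kb. Among the members it was -0.69 in 132 genes of 300 to 500 kb, -0.71 in 38 of 500 to 700 kb and -0.79 in 26 of 700 kb and over. The share called lower was 2.58%, 2.38%, 2.92% and 5.09% in the shorter classes and 16.7%, 23.7% and 30.8% among the members. The share called higher was 1.88%, 1.87%, 1.54% and 0.636% in the former and 1.52%, 2.63% and 0% in the latter.

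Treated replicate 2 departed from zero at shorter spans than treated replicate 1. In the class of 30 to 100 kb the median differences were -0.02 in replicate 1 and -0.19 in replicate 2, and in the class of 100 to 300 kb -0.19 and -0.49. In the genes of 300 to 500 kb the values came closer, with -0.67 and -0.79, and at 700 kb and over they were -0.85 and -0.90. In genes under 10 kb the libraries had opposite signs, -0.03 and 0.10. The share of genes below both controls rose from 49.8% and 42.3% (replicates 1 and 2) under 10 kb to 63.2% and 77.3% at 100 to 300 kb. Across 11001 expressed genes the fitted log2 fold change had a Spearman correlation of -0.198 with span and of -0.144 with exon length, and across the 196 members of -0.15 with span, -0.02 with exon length and -0.06 with the longest intron. These points are genes of the same 4 libraries and are not independent.

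**Figure D3:**
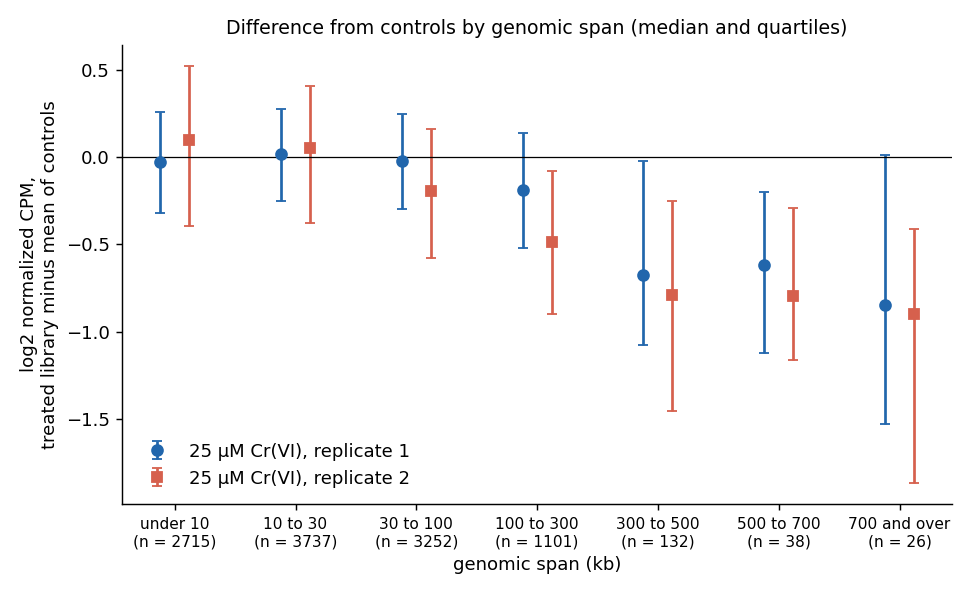
Median and quartiles of the difference of log2 normalized CPM between each treated library and the mean of the controls, for expressed protein-coding genes in classes of genomic span (kb, number of genes below each class). The medians stay between -0.19 and 0.10 below 100 kb and lie between -0.90 and -0.62 in the classes of 300 kb and over in both treated libraries.

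A long gene can also make short transcripts. In 103 members every curated RefSeq transcript spanned at least 300 kb, and of these 23 were called lower and 1 higher, with a median log2 fold change of -0.79 that was the same in replicate 1 (-0.79) and close in replicate 2 (-0.78). In the other 93 members, which have a shorter or no curated transcript of that span, 16 were called lower and 2 higher. Their median was -0.55, and the libraries differed, with -0.41 in replicate 1 and -0.82 in replicate 2. In the 19 members with no curated transcript of 300 kb, 2 were called lower and 0 higher and the median was -0.34. The difference between these groups was not tested, and which transcripts the cells made cannot be read from counts per gene. This split was chosen after seeing the data.

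**Figure D4:**
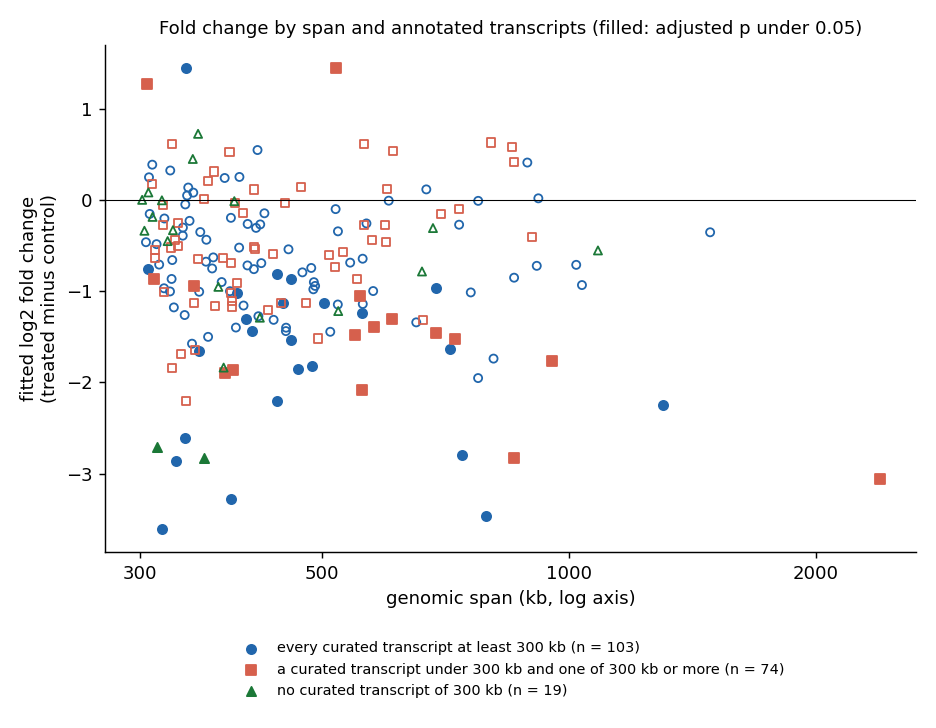
Fitted log2 fold change (treated minus control) against genomic span (kb, log axis) for the 196 members, with colour and shape for the curated transcripts of the gene and filled symbols for an adjusted p under 0.05. Genes all of whose curated transcripts span at least 300 kb (circles) have a median of -0.79, and Dmd stands alone at 2390 kb with -3.06.

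Of 67 genes in a list of transcription elongation factors and topoisomerases 60 were tested, and 1 was called lower and 1 higher (median log2 fold change 0.13, beside 2.85% and 1.78% of all genes called). The lower gene was Mllt3, a subunit of elongation complexes whose own span is under 300 kb, with 7.68 and 7.25 normalized CPM in treated and 22.9 and 24.9 in control libraries (-1.68, edgeR adjusted p = 0.0295). The higher gene was Tcea3, a TFIIS-type elongation factor of low level, with 1.45 and 1.73 against 0.345 and 0.230 (2.46, edgeR adjusted p = 0.0438). Both treated libraries were above both controls in 28 of the 60 and below both in 7, beside 32.2% and 34.1% of all genes.

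The FAIRE peak lists are a readout that did not choose the members. Each peak is a region more open in 1 treated library than in its control, called by the authors with MACS, and its score is the MACS p-value on a negative log10 scale, multiplied by 10. With 1 library per condition the peaks have no replicate check. The paper gives an approximate read depth per sample, and the depth of each FAIRE-seq library is not known. Of 2945 peaks opened at 25 µM Cr(VI), 118 had their centre inside a member, and 81 members (41.3%) held at least 1. Of these peaks 111 lay in introns and 7 in exons.

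Some of these regions are shown to let their sequence be seen. They are the acute peaks within 1000 bp of a start site of a member, and the acute peaks in called members that hold an AP-1 site, searched as the letters TGACTCA and TGAGTCA, which are reverse complements of each other, on both strands at once. AP-1 is the dimer of Fos and Jun proteins. The sequences are the mm10 plus strand from RefSeq, 5′ to 3′, with the AP-1 letters in capitals.
Cdkal1: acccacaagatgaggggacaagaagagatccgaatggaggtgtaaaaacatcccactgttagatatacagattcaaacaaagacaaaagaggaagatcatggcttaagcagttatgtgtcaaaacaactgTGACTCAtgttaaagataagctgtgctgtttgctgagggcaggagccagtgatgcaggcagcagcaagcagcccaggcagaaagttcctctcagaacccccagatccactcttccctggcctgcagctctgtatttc
Atxn1: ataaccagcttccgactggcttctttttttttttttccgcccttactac
Pde4d: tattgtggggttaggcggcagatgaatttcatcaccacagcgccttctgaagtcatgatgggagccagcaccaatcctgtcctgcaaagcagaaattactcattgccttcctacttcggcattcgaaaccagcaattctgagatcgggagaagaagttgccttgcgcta
Cacna2d1: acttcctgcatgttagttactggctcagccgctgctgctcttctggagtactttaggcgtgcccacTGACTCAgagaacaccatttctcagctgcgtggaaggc
Magi1: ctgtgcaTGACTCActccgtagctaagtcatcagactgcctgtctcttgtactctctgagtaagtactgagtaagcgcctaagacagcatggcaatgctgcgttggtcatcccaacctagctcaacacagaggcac
Sox5: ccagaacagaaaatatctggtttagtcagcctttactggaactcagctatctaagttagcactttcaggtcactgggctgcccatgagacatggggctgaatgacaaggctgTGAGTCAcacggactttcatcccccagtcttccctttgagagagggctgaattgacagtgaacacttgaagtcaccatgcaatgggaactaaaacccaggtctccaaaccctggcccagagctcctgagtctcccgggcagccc
Tenm4: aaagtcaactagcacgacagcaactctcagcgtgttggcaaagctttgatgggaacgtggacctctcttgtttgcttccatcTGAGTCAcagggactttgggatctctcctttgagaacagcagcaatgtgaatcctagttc

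The peak in Cdkal1 (chr13:29624990-29625256, score 50.5) had its centre 879 bp downstream of a start site inside the gene that RefSeq predicts, 34.7% of the way along the span. Atxn1 encodes ataxin-1, a repressor bound to chromatin. Its peak (chr13:45963035-45963083, score 53.8) lay 378 bp downstream of a predicted start site, 0.465% of the way along the span. The peak in Pde4d (chr13:109441533-109441701, score 59.0) lay 716 bp downstream of a start site inside the gene, partly in an exon. Their levels moved differently: Pde4d was called lower, Cdkal1 missed the threshold, and Atxn1 had 28.1 and 16.7 normalized CPM against 27.7 and 27.7 (log2 fold change -0.31, adjusted p = 0.495). The other peaks shown lay in introns far from the gene's own starts, in Cacna2d1 (chr5:16047571-16047674), Magi1 (chr6:94100535-94100670), Sox5 (chr6:144640645-144640900) and Tenm4 (chr7:96556728-96556869), all of which were called lower.

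AP-1 letters were found in 20 of the 118 acute peaks inside members (16.9%) and in 354 of all 2945 acute peaks (12%). In members called lower they were in 4 of 19 peaks. The median GC content was 49.1% in the member peaks and 50.3% in all acute peaks, and at least 50% of the bases were marked as repeats in 10 member peaks (8.47%) and in 500 of all (17.0%). A match of these letters is a description of the sequence and not evidence of binding.

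Per Mb of span the members held fewer acute peaks than shorter expressed genes. The density was 1.23 peaks per Mb in members (exact Poisson 95% interval 1.02 to 1.48, counting error only), 1.92 in genes of 100 to 300 kb (1.71 to 2.14), 1.95 at 30 to 100 kb (1.75 to 2.17), 2.31 at 10 to 30 kb (1.97 to 2.69) and 3.34 under 10 kb (2.46 to 4.43). Without peaks within 1000 bp of a start site the values were 1.19, 1.76, 1.69, 1.63 and 2.23. The interval of the members lies below those of the other classes, while the classes between 10 and 300 kb are close to each other once start sites are left out. Members called lower had 0.852 peaks per Mb (0.513 to 1.33) and members not called 1.36 (1.10 to 1.66), intervals that overlap. The median log2 fold change was -0.71 both in the 81 members with an acute peak and in the 115 without.

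Most acute peaks, 5 each, lay in Arhgap26, a GTPase-activating protein, and Ctnnd2, a catenin of neuronal junctions, followed by Lrmda with 4, as many as Nav2, a neuron navigator protein named here after its value was seen. None of the first 3 passed the test. Ctnnd2 had 0.916 and 1.55 normalized CPM against 2.24 and 2.20 (log2 fold change -0.85, adjusted p = 0.183), and Arhgap26 2.60 and 2.07 against 2.65 and 2.07 (-0.01, adjusted p = 0.984). The acute peaks stood at a median of 38.9% of the way along the gene, with 43 in the first 25% of the span and 23 in the last 25%.

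In the list of the long-term treatment 22 peaks lay in 19 members (9.69%). The density was 0.230 peaks per Mb in members (exact Poisson interval 0.144 to 0.348) and 0.422 in genes of 100 to 300 kb (0.330 to 0.532), intervals that overlap. The shorter classes lay above the interval of the members, with 0.483 at 30 to 100 kb (0.386 to 0.596), 0.559 at 10 to 30 kb (0.398 to 0.764) and 1.04 under 10 kb (0.584 to 1.72). Without peaks within 1000 bp of a start site the order changed, with 0.220 in members, 0.363 at 100 to 300 kb, 0.303 at 30 to 100 kb, 0.229 at 10 to 30 kb and 0.0696 under 10 kb. AP-1 letters were in 8 of the 22 (36.4%) and in 196 of all 860 (22.8%). The 22 peaks were wider, with a median of 669 bp against 513.5 bp in all 860. A wider peak has more places for a match, and the shares were not compared at equal width. Peaks within 1000 bp of a start site were found in Arhgap26, 41 bp downstream, and in Rere, 119 bp upstream (chr4:150281174-150281610), and neither gene was called at 25 µM. Since no RNA of the long-term treatment was analysed here, these peaks have no matched expression value.

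**Figure D5:**
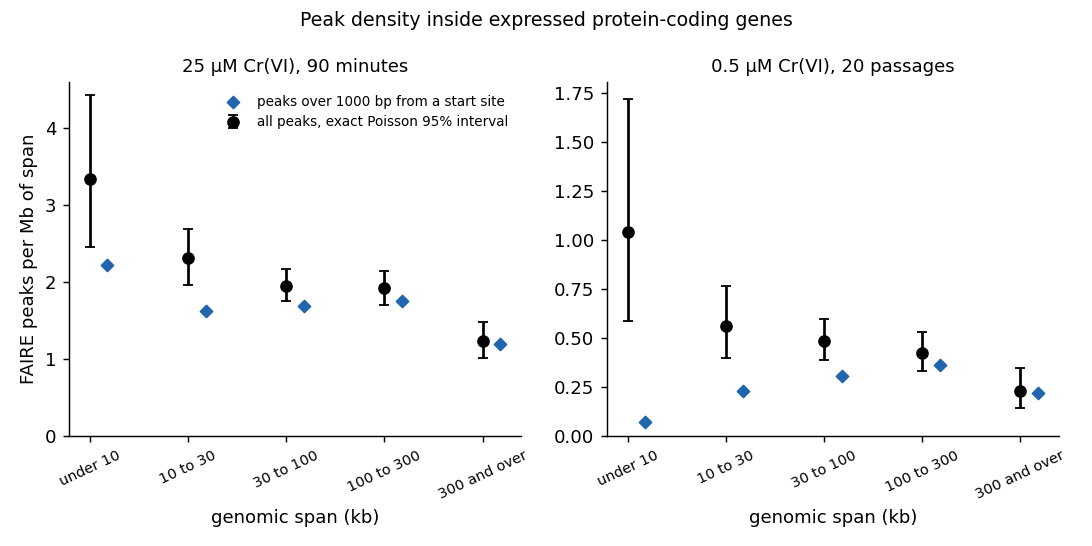
FAIRE peaks per Mb of genomic span in expressed protein-coding genes by span class (kb), for the acute 25 µM list on the left and the long-term 0.5 µM list on the right; circles with bars are all peaks with the exact Poisson 95% interval and diamonds are peaks more than 1000 bp from a start site. At 25 µM the genes of 300 kb and over stand lowest with 1.23 peaks per Mb.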

How the data were processed

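RNA-seq was done on poly-A RNA of the 4 libraries. The authors deposited read counts per Entrez gene, made with TopHat on mm10; the counting tool and use of strand are not given in the sources used here. The peak score was deposited by the authors from MACS calls at default settings on reads aligned by BWA, as 10 times the negative log10 p of 1 treated against 1 control library.

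The members and lists were chosen with earlier results of these data known. Of 23403 genes 13619 passed filterByExpr, and the 2 treated were compared with the 2 control libraries by edgeR's quasi-likelihood test (TMM, two-sided, Benjamini-Hochberg, threshold 0.05); all 196 members were tested. Differences per library are of log2(normalized CPM + 0.1). The SE of a log2 fold change was derived from the test, as its absolute value divided by the square root of the F statistic. The edgeR fit alone was run on simulated counts with known changes. Those counts had the same spread in both groups, unlike the treated and control pairs here. Spans and start sites are those of RefSeq on mm10.

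Named were the 12 largest falls and rises among called genes with groups that did not overlap, the 5 longest members, the 3 highest in control CPM, the 3 genes on each side of each limit, up to 4 called members and the highest member per role list, members with a peak within 1000 bp of a start site and the 3 with most acute peaks. Alternatives were a replicate block, other normalizations, DESeq2, no filter, each library left out, other limits of span and level, and other peak rules. The software was edgeR 4.0.16 with limma 3.58.1 and DESeq2 1.42.0 in R 4.3.3, and Python 3.11.15.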

Additional observations from a re-analysis of the deposited data

How the results depend on the processing

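The median log2 fold change of the members stayed negative under every alternative run, between -0.82 with library size only (where the median of all genes was -0.11) and -0.55 with spans of at least 200 kb, and between -0.81 and -0.66 when single libraries were left out. The number called lower, 39 (beside 388 of all 13619 genes tested), became 92 with the replicate number as a block (beside 1572 of 13619). With DESeq2 it was 78 (beside 1037 of 14170). It was 17 with spans of at least 500 kb and 23 with every curated transcript of at least 300 kb (an alternative chosen after seeing the data). These 2 span rules hold fewer genes. The number called higher, 3, became 1 under both of these span rules. All 39 were kept by the block and by DESeq2, 28 of them with library size only, 14 without control replicate 1 and 15 without control replicate 2. Over the 4 fits that each lack a library, the number called lower ran from 17 (without control replicate 1) to 146 (without treated replicate 1), and the number called higher from 0 (without control replicate 2) to 23 (without treated replicate 1). Leaving out control replicate 2 or treated replicate 2 gave 19 and 141 lower and, of the higher, 0 and 18. Without a treated library the spread came from the controls only, and the lone treated library was assumed to vary like them. Whether the replicate numbers of the labels pair the samples is not known. Across genes, the difference between the 2 treated libraries correlated at 0.0909 with that between the 2 controls. The controls differ too little for this value to decide the question.

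Of the 57 named members, 0 of the 35 that were called changed sign, and 6 that were not called had values of both signs: Arhgap26, Atxn1, Cacna1a, Dst, Pid1 and Rere. Rere was past the threshold on opposite sides, with 0.19 without treated replicate 2 and -0.33 without treated replicate 1. Of these 35, 20 lost the call without control replicate 1 and 20 without control replicate 2 (19 in common), and 6 with library size only. Acute peaks with a score of at least 60 numbered 44 in place of 118, and counting any base of a peak in place of its centre left 118. With 2 libraries per group, a change smaller than the spread of the treated pair may be missed, and no limit of detection was computed. Counts near the floor rest on as few as 22 reads in a control. Keeping Col and Zfp symbols, a floor of 5 CPM, upper-quartile normalization, no filter and leaving out members that share exon bases (chosen after seeing the data) gave 32 to 49 called lower, library size only 29 and spans of at least 200 kb 58. Of all genes, 373 of 13619 were called lower with upper-quartile normalization, 480 of 18864 without the filter and 315 of 13619 with library size only.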

Other observations

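The protein-coding genes of at least 300 kb that did not reach the floor numbered 340 besides those with Col or Zfp symbols, and 100 of these had no count in any of the 4 RNA-seq libraries. The gene above the floor that was left out for its symbol, Zfp407, a zinc finger factor spanning 381839 bases, had 13.9 and 9.73 normalized CPM in treated and 21.5 and 19.9 in control libraries (log2 fold change -0.81 ± 0.22 SE, edgeR adjusted p = 0.106), so that both treated libraries were below both controls and the test was not passed.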
